A study of Homo sapiens with 8 samples.

Results

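The 10 tubulin genes described here are 4 alpha-tubulin genes, TUBA1A, TUBA1B, TUBA1C and TUBA4A, and 6 beta-tubulin genes, TUBB, TUBB2A, TUBB2B, TUBB3, TUBB4B and TUBB6. They were taken by name, by matching each symbol to its Ensembl gene identifier, from the 58219 genes listed for every library. All 10 also passed the filter on low counts and were among the 13129 protein-coding genes tested, although TUBB6 did so through KMS11 alone. The list was drawn up with results of these data in view, so every value of these genes below is a description, and no p value is given for them.

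RNA was sequenced from 2 established multiple myeloma (MM) cell lines, H929 and KMS11, both of which carry the t(4;14) translocation. Each line was grown in RPMI 1640 with fetal bovine serum and treated for 24 h with 2 µM fluvastatin, a statin that inhibits HMG-CoA reductase, or with ethanol, its solvent. The 4 groups were H929 in ethanol, H929 in fluvastatin, KMS11 in ethanol and KMS11 in fluvastatin, with 2 biological replicates each and 8 libraries in all. The groups thus cover 1 dose, 1 time and a single line of each name.

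Total expected counts were between 26702515 and 41910446 per library, where expected counts are RSEM's estimates of the fragments from each gene. Of the plasma cell markers, SDC1, TNFRSF17, XBP1, IRF4 and PRDM1 held between 4518 and 98863 counts in every library. CD38 held 4162 to 4845 counts in the H929 libraries and 4 to 11 in those of KMS11. The monocyte marker CD14 was at 0 in all 8 libraries, the fibroblast marker COL1A1 held at most 2 counts and the B cell marker MS4A1 at most 1. The epithelial marker EPCAM held 1684 to 2631 counts in the KMS11 libraries and at most 1 in those of H929. The endothelial marker PECAM1, which is also found on plasma cells, held 117 to 778 counts. The T cell marker CD3E held 110 to 246 counts in H929 and 10 to 30 in KMS11. Together these 6 markers summed to 29.2 to 30.7 CPM (counts scaled to library size) in H929 in ethanol and 34.8 to 38.1 CPM in fluvastatin, and to 68.7 to 69.7 and then 65.4 to 74.7 CPM in KMS11. Of the 3 that were tested, CD3E alone passed the threshold (an adjusted p of 0.05), higher in H929 (log2 fold change 1.13, adjusted p = 0.00309 by edgeR), and the part of such markers in the values below was not tested. The KMS11 fluvastatin libraries differed more from each other (SD of the log2 ratio 0.25) than the pairs of the other groups (0.13 to 0.18). In replicate 1 of that group 88.1% of counts were in protein-coding genes and 11.9% in the top 10 genes, against 90.8% to 91.4% and 9.24% to 9.76% in the other KMS11 libraries. The mitochondrial share of counts was 0.520% to 0.745% in ethanol and 0.665% to 1.06% in fluvastatin, higher in fluvastatin within each line.

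Microtubules are hollow polymers of alpha- and beta-tubulin dimers that form the mitotic spindle and the tracks for intracellular transport. Several genes encode near-identical alpha and beta chains, termed isotypes. TUBA1B, TUBA1C, TUBB and TUBB4B are broadly expressed in dividing cells, whereas TUBB3 is best known as a neuronal isotype, and TUBA1A, TUBB2A and TUBB2B are prominent in the developing brain. New chains fold in the TRiC chaperonin, to which prefoldin delivers them, and are joined into dimers by tubulin cofactors. Cells also adjust their tubulin mRNA to the amount of free dimer. In this autoregulation TTC5 binds the first residues of a tubulin chain as it leaves the ribosome, and with SCAPER and the CCR4-NOT deadenylase it brings about decay of the mRNA being translated.

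The coding sequences of the 10 genes begin with very similar bases. These are shown because the first codons encode the residues that TTC5 reads. In each line the start codon is in lower case and the next 3 codons are in capitals, 5′ to 3′, from the GENCODE release 44 transcripts.
TUBA1A: atgCGTGAGTGC
TUBA1B: atgCGTGAGTGC
TUBA1C: atgCGTGAGTGC
TUBA4A: atgCGTGAATGC
TUBB: atgAGGGAAATC
TUBB2A: atgCGCGAGATC
TUBB2B: atgCGTGAGATC
TUBB3: atgAGGGAGATC
TUBB4B: atgAGGGAAATC
TUBB6: atgAGGGAGATC
TUBA1A, TUBA1B and TUBA1C shared all 12 bases. TUBB and TUBB4B were identical to each other over this stretch, as were TUBB3 and TUBB6. TUBA1A and TUBA1B, which have the same first codons, responded in different directions in H929. The part of autoregulation in these responses was not tested.

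Over the whole coding sequence, identity was 97.2% between TUBA1A and TUBA1B, 95.9% between TUBA1A and TUBA1C and 96.8% between TUBA1B and TUBA1C, while TUBA4A was 84.4% to 85.7% identical to these. TUBB2A and TUBB2B were 98.1% identical, and the other pairs of beta genes were between 81.0% and 87.7% identical. The related genes also lie close together. On GRCh38, TUBB2A (chr6:3153497-3157544) and TUBB2B (chr6:3223324-3231730) were separated by 65780 bases on the minus strand of chromosome 6. TUBA1B (chr12:49127782-49131397), TUBA1A (chr12:49184686-49189080) and TUBA1C (chr12:49188736-49274600) lay within 146819 bases of chromosome 12, with the TUBA1A and TUBA1C gene models overlapping by 345 bases on opposite strands. The other genes were TUBB (chr6:30717435-30725538), TUBA4A (chr2:219249710-219277902), TUBB3 (chr16:89921392-89938761), TUBB4B (chr9:137241287-137243707) and TUBB6 (chr18:12307669-12344320).

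Such identity bears on what the counts can separate, since RSEM divides fragments that fit several genes. Of all 75-base windows (the read length) in the main transcript, 31.2% in TUBA1A, 48.4% in TUBA1B and 18.1% in TUBA1C also occurred in another annotated gene. The shares were 59.5% in TUBB2A and 52.1% in TUBB2B, mostly with each other. They were 9.0% or less in TUBA4A, TUBB, TUBB4B and TUBB6. In TUBB3 the share was 92.6%, all of it with a longer gene model at the same locus (ENSG00000198211), but that model was given an expected count of 0 in all 8 libraries. Of the TUBB3 windows, 6.80% also occurred in TUBB2A and 6.80% in TUBB2B, which did hold counts.

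In ethanol the family was dominated by a few isotypes. TPM (a transcript level per unit of length, scaled to the library total) can be compared between genes, and its mean over the 4 ethanol libraries was 1035 for TUBA1B, 358 for TUBB, 230.2 for TUBA1C, 130.5 for TUBB4B and 60.5 for TUBA4A. The other 5 genes were far lower, with 19.4 TPM for TUBA1A, 4.85 for TUBB2B, 3.54 for TUBB2A, 2.14 for TUBB3 and 1.32 for TUBB6. In H929 in ethanol, TUBA1B made up 71.2% ± 0.31 (SD, n = 2) of the summed alpha TPM and TUBB made up 70.4% ± 1.3 of the summed beta TPM. In KMS11 in ethanol these shares were 79.6% ± 0.24 and 72.7% ± 0.70. All annotated alpha genes and pseudogenes outside the list added at most 0.176% to the alpha total of any library, and those of the beta family at most 0.800%.

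The lines differed most in the low-level beta isotypes. TUBB6 had an expected count of 0 in all 4 H929 libraries and of 244 and 262 in KMS11 in ethanol. Against a floor of 3 counts per library, TUBB6 was at least 60.9-fold higher in KMS11 in ethanol and at least 105-fold higher in fluvastatin. TUBB3 was 6.03-fold higher in KMS11 in ethanol on the count scale (log2 difference 2.59, standard error (SE) 0.30), whereas TUBB2A (log2 difference -2.59, SE 0.19) and TUBB2B (-1.45, SE 0.19) were lower. TUBA1A and TUBA1B were higher in KMS11 by 0.67 and 0.76 on the log2 scale (both SE 0.10). Of the 9 genes counted in both lines, 8 passed an adjusted p of 0.05 in this comparison, 3 of them higher and 5 lower in KMS11, beside 35.6% and 36.4% of all tested genes. For TUBA4A, TUBB and TUBB4B the order of the lines depended on the scale. Their counts were lower in KMS11 by 0.46, 0.37 and 0.53 on the log2 scale of the fit, but with log2(TPM + 1) the differences were 0.38 for TUBA4A, 0.15 for TUBB and -0.0033 for TUBB4B, and with the GC trend removed TUBA4A and TUBB4B turned to 0.099 and 0.18. Without replicate 1 of KMS11 in ethanol all 3 missed the threshold, as did TUBB4B without replicate 1 of H929 in ethanol.

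After 24 h in fluvastatin, TUBA1A was 3.88-fold higher in H929 and 4.17-fold higher in KMS11, and TUBB3 was 3.46-fold and 4.00-fold higher. TUBB2A and TUBB2B were 3.78-fold and 4.67-fold higher in KMS11, but 1.29-fold and 1.31-fold higher in H929, where neither passed the threshold. The high-level genes TUBA1B, TUBA1C, TUBA4A, TUBB and TUBB4B were lower in H929, at 0.348 to 0.652 times their ethanol level, and did not pass the threshold in KMS11. All of these values are relative to the total of each library, so that a change in the RNA content of a cell would not be seen in them. The plot of TPM by library shows the 10 genes side by side.

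**Figure D1:**
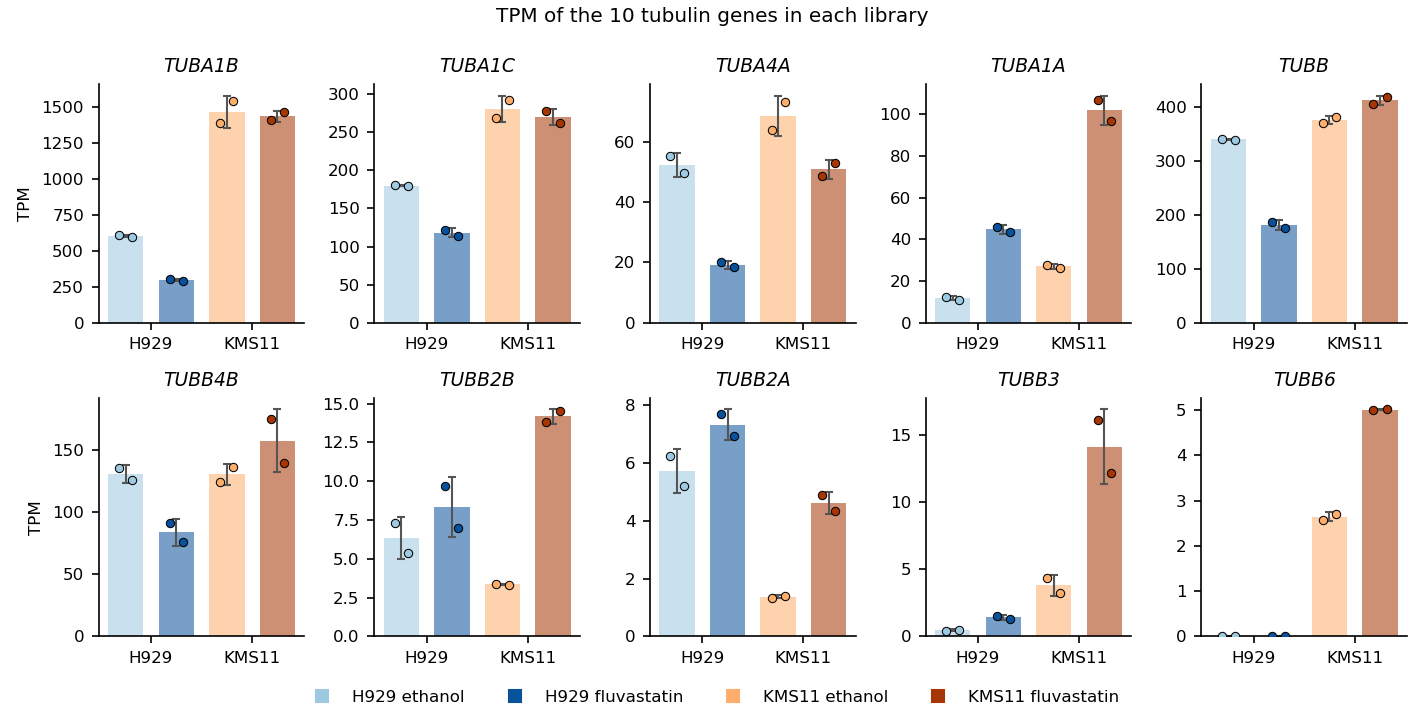
TPM of each tubulin gene in H929 and KMS11 in ethanol (light) and fluvastatin (dark). Bars are the mean of 2 libraries, error bars the SD and points the libraries. The vertical axes start at 0 and differ between panels. In H929 mean TUBA1A rises from 11.8 to 44.8 TPM, while mean TUBA1B falls from 603.2 to 299.6 TPM.

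TUBA1A, an alpha isotype prominent in neurons, was at 12.4 and 11.2 TPM in H929 in ethanol and at 46.2 and 43.4 TPM in fluvastatin. In KMS11 it was at 27.9 and 26.3 TPM in ethanol and at 106.7 and 96.8 TPM in fluvastatin. In both lines the lowest fluvastatin library was thus more than 3 times the highest ethanol library. The log2 fold change from the fit of the counts was 1.96 (SE 0.11) in H929 and 2.06 (SE 0.11) in KMS11, a difference between the lines of 0.10 (SE 0.14).

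TUBA1B, the most abundant alpha gene, was at 607.3 and 599.1 TPM in H929 in ethanol and at 305.1 and 294.1 TPM in fluvastatin. In KMS11 it was at 1388 and 1544 TPM in ethanol and at 1407 and 1462 TPM in fluvastatin, so the groups overlapped. The log2 fold change was -1.01 (SE 0.10) in H929 and 0.11 (SE 0.10) in KMS11. TUBA1C, a second broadly expressed alpha gene, went from 180.9 and 179.2 TPM to 122.2 and 114.0 TPM in H929, a log2 fold change of -0.62 (SE 0.10). In KMS11 it was at 268.1 and 292.6 TPM in ethanol and at 277.5 and 262.3 TPM in fluvastatin, which overlap (log2 fold change 0.05, SE 0.10). TUBA4A, a more divergent alpha gene, showed the largest fall in H929, from 55.2 and 49.6 TPM to 20.2 and 18.4 TPM (log2 fold change -1.52, SE 0.12). In KMS11 TUBA4A was at 63.9 and 73.2 TPM in ethanol and 48.5 and 53.1 TPM in fluvastatin. Those TPM values did not overlap, but the CPM values did, and the log2 fold change of the counts was -0.14 (SE 0.11), or -0.38 and past the threshold with the GC trend removed.

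When TUBA1A, TUBA1B and TUBA1C were summed to 1 feature, which removes the division of shared fragments among them, the log2 fold change was -0.79 (SE 0.10) in H929 and 0.17 (SE 0.10) in KMS11. The rise of TUBA1A was thus hidden in the sum, of which it is a small share. In H929 TUBA1A went from 1.39% ± 0.083 (SD, n = 2) to 9.29% ± 0.085 of the summed alpha TPM, and in KMS11 this share went from 1.48% ± 0.17 to 5.48% ± 0.45.

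TUBB, the most abundant beta gene, was at 340.1 and 339.2 TPM in H929 in ethanol and at 187.4 and 175.3 TPM in fluvastatin, a log2 fold change of -0.90 (SE 0.09). In KMS11 it was at 370.8 and 381.7 TPM in ethanol and slightly higher in fluvastatin, at 406.2 and 418.0 TPM (log2 fold change 0.27, SE 0.09). TUBB4B, which encodes another broadly expressed beta chain, was at 135.7 and 125.5 TPM in H929 in ethanol and at 91.4 and 76.1 TPM in fluvastatin (log2 fold change -0.64, SE 0.16). Without replicate 2 of H929 in fluvastatin that value was -0.50 and no longer passed the threshold. In KMS11, TUBB4B was at 124.3 and 136.3 TPM in ethanol and at 175.1 and 139.4 TPM in fluvastatin, where the log2 fold change was 0.42 (SE 0.16), or 0.60 and past the threshold without replicate 2 of KMS11 in fluvastatin.

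TUBB3, the neuronal beta isotype, was low in H929, with 35.7 and 29.3 expected counts in ethanol and 114.9 and 81.1 in fluvastatin. In KMS11 it held 296.7 and 245.2 counts in ethanol and 969.3 and 879.1 in fluvastatin. The log2 fold change was 1.79 (SE 0.31) in H929 and 2.00 (SE 0.24) in KMS11, and the lines differed by 0.21 (SE 0.40). That difference was -0.10 without replicate 1 of KMS11 in fluvastatin and 0.55 without replicate 1 of H929 in fluvastatin, and it was 0.92 and past the threshold with limma on log2(TPM + 1).

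TUBB2A and TUBB2B, the neighbouring pair on chromosome 6, behaved alike within each line. In KMS11, TUBB2A was at 1.33 and 1.41 TPM in ethanol and 4.87 and 4.35 TPM in fluvastatin, and TUBB2B at 3.36 and 3.34 TPM and then 13.8 and 14.5 TPM. Their log2 fold changes there were 1.92 and 2.22 (both SE 0.19). In H929, TUBB2A was at 6.25 and 5.18 TPM in ethanol and 7.69 and 6.94 TPM in fluvastatin (log2 fold change 0.36, SE 0.17), and the groups did not overlap. TUBB2B was at 7.31 and 5.40 TPM in ethanol and 9.72 and 6.98 TPM in fluvastatin in H929, so that its groups overlapped (0.39, SE 0.18). With the GC trend removed both passed the threshold in H929, at 0.52 and 0.51, and TUBB2B did so without replicate 2 of H929 in fluvastatin (0.62). The values fell to 0.12 for TUBB2B without replicate 1 of H929 in fluvastatin and to 0.23 for TUBB2A without replicate 2 of H929 in ethanol. The difference between the lines was 1.56 (SE 0.25) for TUBB2A and 1.83 (SE 0.26) for TUBB2B. Summed to 1 feature, the pair had a log2 fold change of 0.38 (SE 0.15) in H929 and 2.16 (SE 0.16) in KMS11.

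TUBB6, a further beta isotype, was measurable in KMS11 alone, where it rose from 244 and 262 counts to 373 and 503 counts. Its log2 fold change there was 0.97 (SE 0.18). It passed the threshold in the fit of all 8 libraries, but not without replicate 1 of KMS11 in ethanol (0.86), replicate 2 of KMS11 in ethanol (1.03) or replicate 1 of KMS11 in fluvastatin (0.94), nor with the GC trend removed (0.61).

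**Figure D2:**
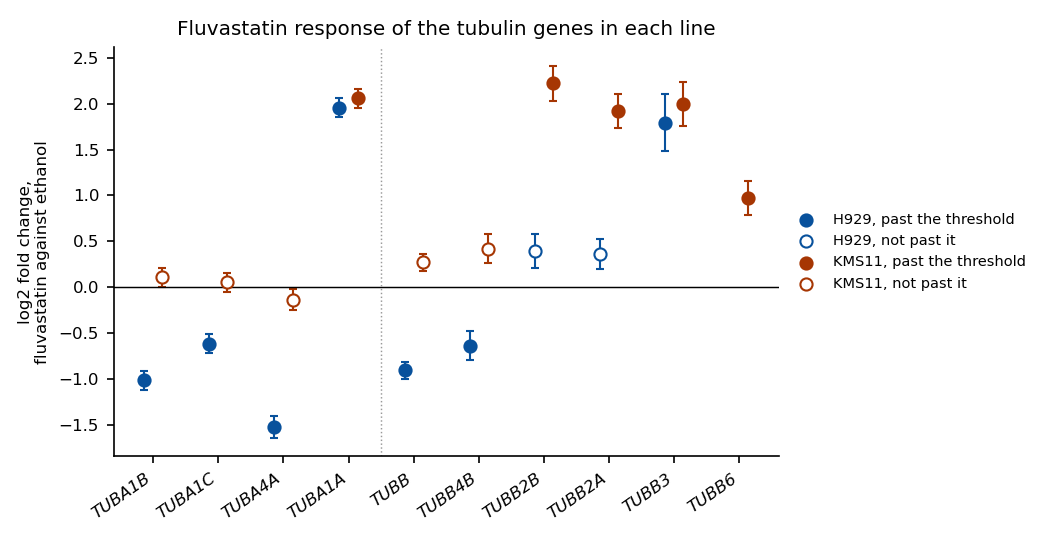
Log2 fold change in fluvastatin against ethanol of each tubulin gene in H929 (blue) and KMS11 (brown), from edgeR's fit of the counts, alpha genes left of the dotted line. Error bars are the SE, and filled points passed an adjusted p of 0.05. TUBA1A and TUBB3 lie between 1.79 and 2.06 in both lines, 5 genes pass below 0 in H929 and 0 in KMS11, and TUBB6 has no value in H929, where it was at 0 counts.

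By an adjusted p of 0.05 over all tested genes, 2 of the 10 genes were higher and 5 lower in H929, where 22.7% of all tested genes were higher and 19.3% lower. In KMS11, 5 were higher and 0 lower, where 2.58% of all tested genes were higher and 0.533% lower. Across both lines 2 genes (TUBA1A and TUBB3) were higher and 0 lower, beside 6.50% and 3.93%. TUBB2A, TUBB2B and TUBB6 lay close to the threshold there, and the count was 4 to 6 under 8 of the alternative settings. TUBB6 was at 0 counts in H929, so its value across both lines is the KMS11 response alone. It is among the calls with no filter, with a minimum count of 50 and with DESeq2. Other calls under these alternative settings were of TUBA4A, which was lower. It passed the threshold with the GC trend removed (-0.85) and with limma on log2(TPM + 1) (-0.91), among other settings. The response of 7 genes (TUBA1B, TUBA1C, TUBA4A, TUBB, TUBB2A, TUBB2B and TUBB4B) was higher in KMS11 than in H929 and that of 0 genes lower, beside 11.7% and 11.5% of all tested genes. TUBA1C missed the threshold there without replicate 1 of KMS11 in ethanol (0.56). As the list may have been chosen on these contrasts, the counts describe it and support nothing further.

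The median log2 fold change of the 9 genes counted in H929 was -0.62, against 0.02 for all tested genes, and that of the 10 genes in KMS11 was 0.70, against 0.0044. The 5 genes of lowest mean TPM in ethanol (TUBA1A, TUBB2A, TUBB2B, TUBB3 and TUBB6) were also the 5 that passed the threshold upwards in KMS11. They summed to 24.3 ± 2.9 TPM (SD, n = 2) in H929 in ethanol and 61.8 ± 4.6 in fluvastatin. In KMS11 they summed to 38.3 ± 1.8 and 139.7 ± 9.6 TPM. The 5 genes of highest level summed to 1306 ± 19 and then 702.1 ± 34 TPM in H929, and to 2321 ± 151 and then 2325 ± 14 TPM in KMS11. The share of the low-level genes in the total of the 10 was thus 1.83% ± 0.19 in ethanol and 8.09% ± 0.19 in fluvastatin in H929, and 1.63% ± 0.18 and then 5.67% ± 0.40 in KMS11. Most of the low-level sum, and most of its rise in both lines, was TUBA1A. In H929 the fall of the high-level sum also raised this share, and of the low-level genes only TUBA1A and TUBB3 passed the threshold there.

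**Figure D3:**
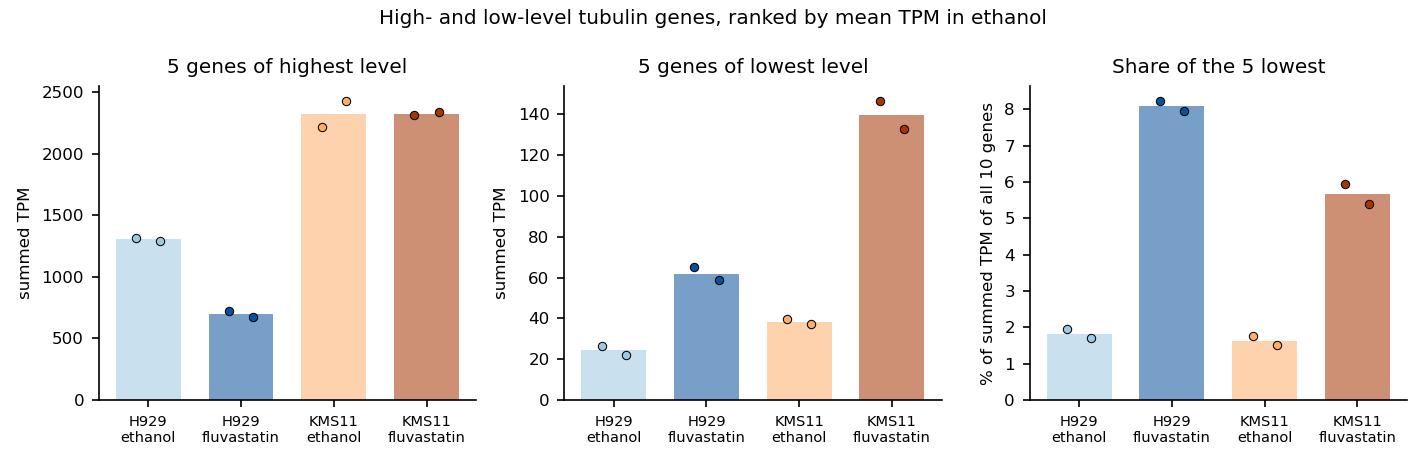
Summed TPM of the 5 tubulin genes of highest (left) and of lowest (middle) mean TPM in ethanol, and the share of the 5 lowest in the total of the 10 genes in percent (right). Bars are means of 2 libraries and points the libraries. The high-level sum falls in H929 from 1306 to 702.1 TPM and is 2321 and 2325 TPM in KMS11, while the low-level share rises in both lines. Most of the low-level sum is TUBA1A.

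The alpha genes together summed to 847.4 ± 12 TPM (SD, n = 2) in H929 in ethanol and 481.7 ± 17 in fluvastatin, and the beta genes to 482.8 ± 9.9 and 282.2 ± 22. The log2 ratio of fluvastatin to ethanol was -0.81 for the alpha sum and -0.77 for the beta sum, and the ratio of alpha to beta TPM was 1.75 and 1.76 in ethanol and 1.66 and 1.76 in fluvastatin. In KMS11 the alpha sum was 1842 ± 133 and then 1857 ± 24 TPM, while the beta sum went from 517.8 ± 16 to 607.3 ± 20. The ratio of alpha to beta TPM was therefore higher in KMS11, at 3.45 and 3.66 in ethanol and at 2.96 and 3.16 in fluvastatin, with no overlap between the 2 treatments.

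The 10 other protein-coding alpha- and beta-tubulin genes were close to silent. TUBA8 held 7 to 24 counts per library, TUBB4A 6 to 24.1 counts in H929 and 55 to 84.9 in KMS11, and TUBA3C, TUBA3D, TUBA3E, TUBA4B, TUBAL3, TUBB1, TUBB8 and TUBB8B at most 6.36 counts in any library.

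The 250 bases upstream of the RefSeq start (GRCh38.p14) are shown for the 4 isotypes with a log2 fold change above 1.5 in at least 1 line. They are also shown for TUBA1B, the most abundant of the genes lower in H929, which does not stand for the others. Capitals mark CCAAT and TGACG on either strand, so that ATTGG and CGTCA are also in capitals. The sequences run 5′ to 3′ on the strand of the gene.
TUBA1A, chr12:49189081-49189330, minus strand: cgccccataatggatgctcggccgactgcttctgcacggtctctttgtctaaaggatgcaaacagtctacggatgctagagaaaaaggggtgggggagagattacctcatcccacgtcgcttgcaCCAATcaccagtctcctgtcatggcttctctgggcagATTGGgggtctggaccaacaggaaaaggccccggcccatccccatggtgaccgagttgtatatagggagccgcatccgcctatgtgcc
TUBB3, chr16:89923092-89923341, plus strand: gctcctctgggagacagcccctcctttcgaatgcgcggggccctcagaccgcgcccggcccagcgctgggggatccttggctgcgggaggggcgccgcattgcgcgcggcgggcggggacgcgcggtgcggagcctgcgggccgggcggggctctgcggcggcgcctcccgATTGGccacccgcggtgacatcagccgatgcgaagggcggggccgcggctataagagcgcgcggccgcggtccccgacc
TUBB2A, chr6:3157545-3157794, minus strand: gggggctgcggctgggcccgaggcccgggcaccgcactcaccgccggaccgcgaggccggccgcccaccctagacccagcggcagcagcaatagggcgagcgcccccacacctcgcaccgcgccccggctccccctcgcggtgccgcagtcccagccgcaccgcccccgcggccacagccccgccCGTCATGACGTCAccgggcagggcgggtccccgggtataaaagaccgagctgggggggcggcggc
TUBB2B, chr6:3227654-3227903, minus strand: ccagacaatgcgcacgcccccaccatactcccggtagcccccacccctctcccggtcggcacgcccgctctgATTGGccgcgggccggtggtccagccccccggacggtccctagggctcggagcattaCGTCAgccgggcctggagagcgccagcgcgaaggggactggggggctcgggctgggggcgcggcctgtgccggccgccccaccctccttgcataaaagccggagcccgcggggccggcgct
TUBA1B, chr12:49131396-49131645, minus strand: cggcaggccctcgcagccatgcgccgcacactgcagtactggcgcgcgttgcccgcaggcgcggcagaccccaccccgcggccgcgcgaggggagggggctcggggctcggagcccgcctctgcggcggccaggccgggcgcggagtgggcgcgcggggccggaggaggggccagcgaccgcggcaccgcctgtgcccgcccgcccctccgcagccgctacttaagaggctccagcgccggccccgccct
CCAAT, the core of the NF-Y motif, occurred on either strand in these 250 bases in 7 of the 10 genes (all but TUBA1B, TUBA4A and TUBB2A) and in 32.0% of 35116 RefSeq promoter entries. TGACG, the core of the CRE motif to which ATF and CREB factors bind, occurred in TUBB, TUBB2A, TUBB2B and TUBB4B, beside 21.2% of all entries, and TUBB2A held 3 matches, of which 2 overlap. GGGCGG, the GC box, occurred in 8 of the 10 (42.6% of all entries), TATAA in 5 (18.9%) and TTTGAA, a core of the cell cycle homology region, in TUBA1C and TUBB4B (13.3%). The CArG box was found in 0 of the 10 and in 1.16% of all entries. CCAAT and TGACG did not separate genes by direction. Of the genes lower in H929, TUBA1C held CCAAT, TUBB and TUBB4B held both, and TUBA1B and TUBA4A held neither. TUBA1A and TUBB3, higher in both lines, held CCAAT without TGACG. These matches are descriptions of letters in a window and not of binding.

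The genes that act on tubulin were followed in lists written from general knowledge, but with earlier results of these data known. Their counts and p values below are therefore descriptions and not independent support. For the genes of these lists, p was taken from the quasi-likelihood test of edgeR and adjusted by the Benjamini-Hochberg method over all 13129 tested genes. The counts of each list stand beside the shares of all tested genes, which were 22.7% higher and 19.3% lower in H929 and 2.58% higher and 0.533% lower in KMS11. With shares that low, 0 calls in a list in KMS11 is near the background. Of the 8 lists, the folding machinery had the median furthest from 0 in H929. Of the 14 genes of TRiC and prefoldin, 9 fell in H929 (19.3% of all tested genes were lower) and 0 rose, with a median log2 fold change of -0.56. TCP1, a TRiC subunit, was at 299.6 and 335.9 CPM in ethanol and 164.1 and 182.7 CPM in fluvastatin (log2 fold change -0.87, SE 0.10, adjusted p = 0.000105). The subunits CCT6A (-0.73, SE 0.11, adjusted p = 0.000500), CCT3 (-0.71, SE 0.08, adjusted p = 0.000127) and CCT7 (-0.71, SE 0.08, adjusted p = 0.000145) also fell. In KMS11 0 of the 14 passed the threshold, with a median of -0.26, and TCP1 had a log2 fold change of -0.27 (adjusted p = 0.148). Across both lines 9 of the 14 fell, where 3.93% of all tested genes were lower. The response of TCP1, CCT3 and CCT7 differed between the lines (adjusted p = 0.0122, 0.0203 and 0.0312). The call for TCP1 was lost without either KMS11 ethanol library, those for CCT3 and CCT7 were lost in 6 and 7 of the 8 fits that leave out a library, and all 3 were lost with limma on log2(TPM + 1).

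Nucleation of microtubules starts from the gamma-tubulin ring complex. Of the 14 genes for this complex and for delta- and epsilon-tubulin, 1 rose and 4 fell in H929 (22.7% and 19.3% of all tested genes), with 0 of either kind in KMS11. TUBG1, which encodes gamma-tubulin, went from 126.3 and 104.7 CPM to 60.4 and 44.8 CPM in H929 (log2 fold change -1.14, SE 0.17, adjusted p = 0.000615). In KMS11 it was at 89.7 and 100.9 CPM in ethanol and at 118.9 and 91.2 CPM in fluvastatin (0.14, SE 0.17, adjusted p = 0.653). TUBGCP4, a ring complex subunit, and TUBD1, delta-tubulin, fell in H929 (-0.93, adjusted p = 0.000277, and -0.64, adjusted p = 0.00396), whereas TUBE1, epsilon-tubulin, rose (0.99, adjusted p = 0.00165). Of the 6 cofactor genes matched, TBCD (-0.52, adjusted p = 0.0112) and TBCC (-0.38, adjusted p = 0.0194) fell and TBCEL (0.35, adjusted p = 0.0275) rose in H929, and 0 passed in KMS11. With limma on log2(TPM + 1) the calls for TUBE1, TBCC and TBCEL were lost, and leaving out a single library ended those for TBCD (2 of 8 fits), TBCC (3 of 8) and TBCEL (4 of 8). TBCC also lost its call with the GC trend removed (-0.23).

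Among the 12 genes of tubulin mRNA autoregulation, 1 rose and 1 fell in H929 (22.7% and 19.3% of all tested genes) and 0 passed in KMS11. TTC5, the factor that reads the nascent chain, was at 18.1 and 18.2 CPM in ethanol and 15.8 and 16.4 CPM in fluvastatin in H929, with a log2 fold change of -0.17 (SE 0.12, adjusted p = 0.259). In KMS11 its log2 fold change was also -0.17 (SE 0.11, adjusted p = 0.391). CNOT9, a subunit of the CCR4-NOT complex, fell in H929 (-0.82, SE 0.11, adjusted p = 0.000244), and CNOT8, one of its deadenylases, rose (0.42, SE 0.10, adjusted p = 0.00903). With limma on log2(TPM + 1) TTC5 passed the threshold in H929, at -0.42, and CNOT8 did not, at 0.32, and CNOT8 was also lost without replicate 1 of H929 in ethanol or replicate 2 of H929 in fluvastatin.

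Of 19 enzymes that modify microtubules, 6 rose and 3 fell in H929, close to the 22.7% and 19.3% of all tested genes, and 1 rose in KMS11. TTLL1, a tubulin glutamylase, went from 1.46 and 1.24 CPM to 6.59 and 6.77 CPM in H929 (log2 fold change 2.30, SE 0.28, adjusted p = 0.000164), and the glutamylase TTLL6 from 19 and 11 counts to 65 and 68 counts (2.34, SE 0.35, adjusted p = 0.000825). TTLL6 held at most 2 counts in the KMS11 libraries. VASH2, a tubulin detyrosinase, went from 20 and 17 counts to 3 and 3 counts in H929 (adjusted p = 0.00187), and TTLL12 fell (-1.01, SE 0.21, adjusted p = 0.00369). HDAC6, a tubulin deacetylase, rose in KMS11 (0.55, SE 0.12, adjusted p = 0.0395) and in H929 (0.83, SE 0.12, adjusted p = 0.000460). The HDAC6 call in KMS11 was lost in 7 of the 8 fits that leave out a library and with limma on log2(TPM + 1), where it was 0.10, and so was the VASH2 call in H929 with that limma fit (-0.13).

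Of 27 genes for microtubule dynamics and binding, 9 rose and 2 fell in H929 (22.7% and 19.3% of all tested genes), and 3 rose in KMS11 (2.58%). MAP1B, a structural microtubule-associated protein of neurons, was the gene of this list with the largest change. It went from 0.861 and 0.848 CPM to 10.9 and 12.9 CPM in KMS11 (log2 fold change 3.80, SE 0.16, adjusted p = 6.27e-06). In H929 MAP1B was at 244.1 and 215.5 CPM in ethanol and at 593.0 and 617.3 CPM in fluvastatin (1.40, SE 0.10, adjusted p = 1.24e-05). MAP2, another neuronal microtubule-associated protein, rose from 1.36 and 1.08 CPM to 3.69 and 3.38 CPM in H929 (1.52, adjusted p = 0.000596) and from 2.32 and 2.24 CPM to 6.46 and 6.76 CPM in KMS11 (1.53, adjusted p = 0.00363). MAP4, the widely expressed member of this group, rose in KMS11 (0.59, SE 0.10, adjusted p = 0.0117) and in H929 (0.92, SE 0.10, adjusted p = 8.76e-05). In KMS11 the calls for MAP2 and MAP4 were lost without either ethanol library, and that for MAP4 also with limma on log2(TPM + 1), where it was 0.28. ARHGEF2, a microtubule-bound exchange factor for RHOA, rose in H929 (1.13, SE 0.16, adjusted p = 0.000482), and so did CLIP2 at 23 to 103 counts (1.58, SE 0.48, adjusted p = 0.0246). CLIP2 lost its call without replicate 1 of H929 in fluvastatin (1.23) or replicate 2 of H929 in ethanol (1.27). STMN1, which sequesters free dimers, had log2 fold changes of 0.17 (adjusted p = 0.312) in H929 and 0.10 (adjusted p = 0.673) in KMS11.

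Of the 32 genes of cytoplasmic kinesin, dynein and dynactin, 14 rose and 2 fell in H929 (22.7% and 19.3% of all tested genes), and 1 rose in KMS11, at the background share of 2.58%. KIFAP3, the adaptor of kinesin-2, went from 112.8 and 103.3 CPM to 290.9 and 320.3 CPM in H929 (log2 fold change 1.5, SE 0.10, adjusted p = 8.39e-06). The kinesin heavy chain KIF5C (1.12, adjusted p = 0.000475), the dynein light chain DYNLT3 (1.02, adjusted p = 0.000244) and the kinesin-3 KIF13A (0.99, adjusted p = 0.000680) rose as well. In KMS11, DCTN2, a dynactin subunit, rose from 97.1 and 102.8 CPM to 140.8 and 135.7 CPM (0.47, SE 0.10, adjusted p = 0.0324). The DCTN2 call was lost without either KMS11 ethanol library or replicate 1 of KMS11 in fluvastatin, and with limma on log2(TPM + 1), where it was 0.40.

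**Figure D4:**
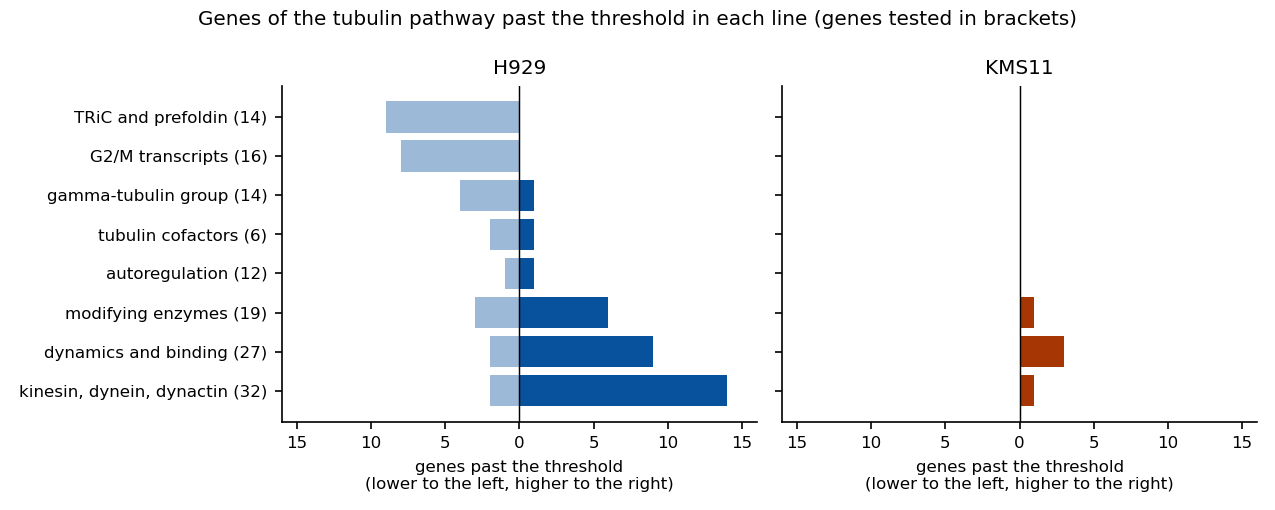
Number of genes of each tubulin pathway list that passed an adjusted p of 0.05 in fluvastatin against ethanol in H929 (left) and KMS11 (right), with lower genes to the left of 0 and higher genes to the right. The number of genes tested stands in brackets. In H929 TRiC and prefoldin (9 of 14) and the G2/M transcripts (8 of 16) have calls below 0 alone, and of the 32 motor genes 14 are higher and 2 lower.

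Of 16 transcripts of the G2 and M phases of the cell cycle, 8 fell in H929, where 19.3% of all tested genes were lower, 0 rose, and 0 passed in KMS11. Their summed level was 4158 to 4903 CPM in H929 in ethanol and 3621 to 3965 CPM in fluvastatin, and 5332 to 5528 and then 5267 to 5615 CPM in KMS11. AURKB (-0.96, adjusted p = 0.000406), CDC20 (-0.84, adjusted p = 0.000794), BUB1B (-0.66, adjusted p = 0.000843) and CDK1 (-0.57, adjusted p = 0.00685) fell in H929. TOP2A (-0.14, adjusted p = 0.385) and MKI67 (-0.04, adjusted p = 0.803) did not pass. CDK1 lost its call without replicate 2 of H929 in ethanol (-0.40). The part of these transcripts in the tubulin values was not tested.

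The genes whose pattern over the 8 libraries was most like that of TUBA1A, by Pearson's r of log2 CPM centred within each line, were KLF2 (r = 0.996), DUSP8 (0.996), ARHGAP21 (0.995), ATF3 (0.995) and EPB41L4A (0.994). Of these, KLF2, a transcription factor, was higher in fluvastatin by 2.56 on the log2 scale in H929 and 2.90 in KMS11, and ATF3, a stress-induced transcription factor, by 2.24 and 2.34. EPB41L4A was higher by 1.39 and 1.36 and ARHGAP21 by only 0.53 and 0.60, while DUSP8 rose the most. A high r thus did not mean a change of like size. For TUBA1B the genes most alike included DOLPP1 (r = 0.997), PXMP2 (0.995), SF1 (0.995) and DDT (0.992), with log2 fold changes of -0.88 to -0.43 in H929 and 0.03 to 0.12 in KMS11. The 8 points share line and treatment, so these r are descriptions of 2 patterns, a rise in both lines and a fall in H929 alone.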

How the data were processed

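RNA from H929 and KMS11 cells was sequenced in 8 libraries, 2 for each line and treatment, and samples were grouped by their labels. After removing ribosomal RNA, the authors made stranded libraries from total RNA, aligned 75-base paired reads to GRCh38 with STAR 2.5.2b and estimated gene values with RSEM 1.3.0 on an annotation older than the one used here. They deposited expected counts, which are estimated and not normalized, with TPM, which RSEM scaled by effective length and library total. The deposited FPKM values repeat the TPM on another scale and were not used.

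Identifiers were matched to GENCODE release 44 (57392 of 58219). The analysis used edgeR 4.0.16 in R 4.3.3 on expected counts rounded to whole numbers: filterByExpr (minimum count 10, minimum total 15) on protein-coding genes, TMM scaling and quasi-likelihood F tests, with p adjusted (Benjamini-Hochberg) over 13129 genes, threshold 0.05. Both lines together were fitted with terms for line and treatment, and each line, the difference (KMS11 minus H929) and the lines in ethanol from a fit of the 4 group means. The SE is the log2 fold change divided by the square root of F. CPM uses the TMM library sizes. All groups, of 2 replicates each, share an estimate of the spread. It exceeded counting error in every group (chi-square per degree of freedom of the 2 replicates 9.98 to 18.1, and 37.9 in KMS11 in fluvastatin). Genes with at most 3 counts in all 4 libraries of a line were not given a fold change there.

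On simulated data, 13129 genes with 200 changed, the fit recovered 81% of 2-fold and 96% of 4-fold changes within H929 and 82% and 96% within KMS11. For the difference between the lines it recovered 65% and 90%. Of the calls, 3.28% were false within H929, 6.32% within KMS11 and 3.73% for the difference. The simulation gave all groups the same spread, although the replicates of KMS11 in fluvastatin differed more than those of the other groups. It therefore cannot show the recovery at that wider spread. Apart from the 200 changed genes it also gave both lines the same level of each gene, whereas 5511 genes were called within H929. Recovery and false calls under such widespread change were not simulated.

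The tubulin genes and the lists were chosen with earlier results of these data known. TBCE had no match by symbol. Named pathway genes were up to 4 per list past the threshold with the largest change in each line and up to 3 in the difference, with TTC5, TUBG1 and STMN1 always named. MAP4 and HDAC6 in H929, and TOP2A and MKI67, were named after their values were seen. Shared windows and first codons came from GENCODE transcripts, promoters from RefSeq. Alternatives were median-of-ratios and library size scaling, no filter and a minimum count of 50, DESeq2 1.42.0, limma 3.58.1 on log2(TPM + 1) and log2(TPM + 0.1), all annotated genes, a replicate block, GC and length trends as offsets, no term for the line, 1 line alone, near-identical genes summed, all annotated family members summed, and leaving out each library. A few genes that met these rules are not reported here.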

Additional observations from a re-analysis of the deposited data

Results flagged for a closer look

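TUBB and TUBB4B are listed because every fluvastatin library lay below both ethanol libraries in H929 and above both in KMS11. TUBB had log2 fold changes of -0.90 and 0.27 in the 2 lines, a difference of 1.18, and TUBB4B of -0.64 and 0.42, a difference of 1.06. Neither rise in KMS11 passed the threshold, and the share of all tested genes with this pattern was not counted. TUBB and TUBB4B are both among the 7 tubulin genes past the threshold in the fit of the difference between the lines. As the genes were chosen with the readout known, this is a description, and no p is given.

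The other genes are listed because edgeR's quasi-likelihood test of the difference between the lines, KMS11 minus H929, passed an adjusted p of 0.05. Among these MAP1B had the largest difference, 2.40 on the log2 scale (adjusted p = 0.000112), at 31 and 33 counts in KMS11 in ethanol. VASH2 differed by 2.24 (adjusted p = 0.0112), and rests on 3 counts in each H929 fluvastatin library. KIF2A, a microtubule-depolymerizing kinesin, differed by -0.61 (adjusted p = 0.0107).

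TUBG1 differed by 1.28 (adjusted p = 0.00542), TUBGCP4 by 0.91 (adjusted p = 0.00535) and MZT2B by 1.25 (adjusted p = 0.0280). TBCD differed by 0.85 (adjusted p = 0.0110), TBCC by 0.55 (adjusted p = 0.0350) and TBCEL by -0.51 (adjusted p = 0.0442). TCP1 differed by 0.60 (adjusted p = 0.0122), CCT3 by 0.45 (adjusted p = 0.0203) and CCT7 by 0.42 (adjusted p = 0.0312). CNOT9 differed by 0.79 (adjusted p = 0.00521). TTLL1 differed by -1.58 (adjusted p = 0.0159) and TTLL12 by 1.23 (adjusted p = 0.0155). KIFAP3 differed by -1.32 (adjusted p = 0.000456), KIF13A by -0.86 (adjusted p = 0.0201) and KIF1C by 0.81 (adjusted p = 0.0295). AURKB differed by 1.22 (adjusted p = 0.00243), CDC20 by 0.92 (adjusted p = 0.00787) and BUB1B by 0.58 (adjusted p = 0.0217). Without replicate 1 of KMS11 in ethanol the calls for KIF2A, TBCD and TTLL1 were lost, as were those for TTLL12, KIF13A, KIF1C, BUB1B, MZT2B, TBCC, TBCEL, TCP1, CCT3 and CCT7, which were lost without other libraries as well. VASH2 lost its call without replicate 2 of H929 in fluvastatin, and TTLL1 also without replicate 2 of H929 in ethanol. With limma on log2(TPM + 1) the calls for TUBGCP4 (0.40), CNOT9 (0.55), KIF1C (0.73), BUB1B (0.47), TBCC (0.37), TBCEL (-0.50), TCP1, CCT3 and CCT7 were lost. With the GC trend removed those for MZT2B (0.26) and TBCC (0.26) were lost.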

How the results depend on the processing

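With 2 replicates per group, small changes cannot be told from the spread. Where TUBB6 is among the calls across both lines below, it is so through KMS11 alone. The number of tubulin genes past the threshold was 7 in H929 in the reported fit and in all 8 fits without a library, with TUBB2B in place of TUBB4B without replicate 2 of H929 in fluvastatin. In KMS11 it was 5, and 4 to 6 without a library. Across both lines it was 2, and 4 with median-of-ratios scaling, 6 with no filter and with DESeq2, 5 with a minimum count of 50, with limma on log2(TPM + 1) and on log2(TPM + 0.1) and with the GC or the GC and length trends removed, 0 with no term for the cell line, and 2 to 3 without a library. It was 6 to 7 for the difference between the lines and 5 to 8 for the lines in ethanol without a library.

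The count over all tested genes in KMS11 was 409, and 1098 with no filter, 926 with DESeq2, 223 and 158 with limma on log2(TPM + 1) and log2(TPM + 0.1), 1558 and 1570 with the GC and the GC and length trends removed, and 61 (without replicate 1 of KMS11 in ethanol) to 2118 (without replicate 2 of KMS11 in fluvastatin) without a library. Across both lines it was 1370, and 2556 with DESeq2, 3017 and 2992 with the trends removed, 4 with no term for the cell line and 193 to 1717 without a library. For the difference it was 3048, and 1969 with limma on log2(TPM + 0.1) and 1306 to 4286 without a library. It was 3913 to 6258 within H929 and 8031 to 9814 for the lines in ethanol without a library. Of the calls in KMS11, 82.9% were higher, against 58.4% with the GC trend removed.

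Equal replicate numbers were not shown to pair the samples: the deviations of same-numbered libraries correlated at 0.77 in H929 and -0.078 in KMS11. With a replicate block the count over all genes was 1637 within KMS11 and 158 across both lines. TUBB2B passed the threshold in H929 with the block (0.39).

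The summed TPM of the alpha genes changed by -0.81 on the log2 scale in H929 (-0.85 to -0.78 without a library) and by 0.012 in KMS11 (-0.060 to 0.088), and that of the beta genes by -0.77 (-0.86 to -0.70) and 0.23 (0.20 to 0.26).

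Of the results past the threshold, 6 turned direction. For KMS11 against H929 in ethanol, TUBA4A was at 0.38 and 0.39 with limma on log2(TPM + 1) and log2(TPM + 0.1) and at 0.099 and 0.086 with the GC and the GC and length trends removed, TUBB at 0.15 with both limma fits, and TUBB4B at 0.18 and 0.19 with the 2 trend corrections. For the difference between the lines, MAP1B was at -0.48 and VASH2 at -0.018 with limma on log2(TPM + 1), and MZT2B at -0.081 with the GC and length trends removed. In the comparison of the lines in ethanol, the median of all tested genes was -0.020 in the reported fit. It was 0.31 with limma on log2(TPM + 1) and 0.46 on log2(TPM + 0.1). With limma on log2(TPM + 0.1) the VASH2 difference was 0.56 and did not pass the threshold. The cause of the turns was not tested. Some values that had not passed the threshold also changed sign under at least 1 alternative: TUBA1B, TUBA1C, TUBG1 and STMN1 within KMS11, TUBB4B across both lines, and TUBA1A, TUBB3, TTC5 and STMN1 in the difference between the lines.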
